A study of Homo sapiens with 8 samples.

Results

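The 49 genes described here encode proteins that transcribe, modify, cut and assemble ribosomal RNA in the nucleolus. They were taken by name from a list that holds no ribosomal protein, and each was found by its Ensembl identifier in a count table of 63140 genes. By role, 6 act in transcription by RNA polymerase I, 9 belong to small nucleolar ribonucleoproteins (snoRNPs), 14 build the small ribosomal subunit, 16 build the large subunit and 4 are general nucleolar proteins. All 49 carried enough reads to enter the test, which ran over 24057 genes. The question put to them was whether they moved with the mRNAs of the ribosomal proteins themselves, of which 80 were tested.

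Ribosomes are assembled in the nucleolus. RNA polymerase I makes a long ribosomal RNA precursor, and snoRNPs guide the methylation and pseudouridylation of its nucleotides. Helicases, GTPases and scaffold proteins help to assemble it into the subunits. In leukaemia cells the best known member is NPM1, a histone and ribosome chaperone whose gene is often mutated in acute myeloid leukaemia. Ribosomal protein mRNAs typically begin with a run of pyrimidines, the terminal oligopyrimidine (TOP) start, through which growth signals control their translation. Many ribosome biogenesis genes are instead known as targets of MYC, a transcription factor that binds the E-box motif.

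The assay was ChIRP (chromatin isolation by RNA purification), in which biotinylated probes are hybridised to fixed, sonicated lysate and pulled down on streptavidin beads. The cells were MOLM13 and OCI-AML4, established human lines of acute myeloid leukaemia, collected on day 3 after nucleofection. AAVS1 KO and HOTSCRAMBL KO cells had received Cas9 ribonucleoprotein with guides to AAVS1, the editing control, or to the long non-coding RNA HOTSCRAMBL. AAVS1 CBE and HOTSCRAMBL CBE cells had received a cytosine base editor with the same targets. Each of the 4 groups held 2 libraries, replicate 1 labelled MOLM13 and replicate 2 labelled OCI-AML4, so by the labels a replicate is also another line. The data show little difference between those labels: 119 of 24057 genes (0.495%) were called between libraries labelled MOLM13 and OCI-AML4, fewer than the 2108 called between HOTSCRAMBL KO and AAVS1 KO. Whether the libraries come from 2 lines was not tested further, and line names below are the labels. Results without the line in the model are given with each comparison between groups. All cells, controls included, had been nucleofected with an editor and guides, the labels do not say whether clones or pools were used, and the probes' target is not stated. Values are therefore amounts in a pull-down without an input library, and more transcript per cell cannot be told apart from more of it recovered, nor fewer cells from less RNA per cell. Nothing in the labels says that libraries came from repeated cultures, so p-values measure only the spread between these 8 libraries, with n = 2 in each group.

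The start of each gene shows how the 2 kinds of transcript differ. RefSeq promoter windows on GRCh38.p14, 250 bases before to 50 bases after the annotated start, were matched for 41 of the 49 genes and for 64 of the 80 ribosomal protein genes. The genes without a window were NOP58, NOLC1, TCOF1, BOP1, RRP1B, RRP12, RRS1 and DDX18. Below, 90 bases are printed for each gene, 70 before the start and 20 from it, in the direction of transcription. Capitals mark a pyrimidine run that begins at the start or an E-box (CACGTG). The first 4 are members with a pyrimidine run, RPLP0 and RPS6 are ribosomal protein genes shown for comparison, NCL and NOP56 are members with neither feature, and NAT10 and PNO1 are members with an E-box.
FBL, chr19:39846360-39846449, minus strand: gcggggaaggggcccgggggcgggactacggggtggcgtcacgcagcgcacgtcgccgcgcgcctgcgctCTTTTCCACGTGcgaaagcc
NPM1, chr5:171387779-171387868, plus strand: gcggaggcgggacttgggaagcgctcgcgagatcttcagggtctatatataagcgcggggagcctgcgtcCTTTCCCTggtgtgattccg
EBNA1BP2, chr1:43172551-43172640, minus strand: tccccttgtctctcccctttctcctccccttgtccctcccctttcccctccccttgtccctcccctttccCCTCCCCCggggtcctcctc
DDX21, chr10:68956100-68956189, plus strand: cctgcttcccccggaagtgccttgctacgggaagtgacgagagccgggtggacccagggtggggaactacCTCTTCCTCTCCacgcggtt
RPLP0, chr12:120201092-120201181, minus strand: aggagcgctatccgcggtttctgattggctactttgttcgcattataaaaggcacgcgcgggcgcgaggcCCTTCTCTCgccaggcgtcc
RPS6, chr9:19380217-19380306, minus strand: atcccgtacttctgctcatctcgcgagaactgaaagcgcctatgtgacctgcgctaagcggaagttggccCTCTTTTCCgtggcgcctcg
NCL, chr2:231464465-231464554, minus strand: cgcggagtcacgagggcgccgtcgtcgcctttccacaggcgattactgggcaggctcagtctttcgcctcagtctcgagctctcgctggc
NOP56, chr20:2652562-2652651, plus strand: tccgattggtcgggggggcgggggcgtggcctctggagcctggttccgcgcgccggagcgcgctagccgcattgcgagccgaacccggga
NAT10, chr11:34105559-34105648, plus strand: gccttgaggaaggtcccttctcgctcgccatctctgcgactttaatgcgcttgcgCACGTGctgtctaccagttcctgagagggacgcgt
PNO1, chr2:68157818-68157907, plus strand: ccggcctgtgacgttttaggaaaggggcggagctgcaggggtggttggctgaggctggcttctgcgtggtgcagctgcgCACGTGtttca

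A pyrimidine start was counted where the first base was C and at least 5 bases in a row from it were C or T, on the transcribed strand. It was found in 6 of 41 members (14.6%), namely FBL, NPM1, EBNA1BP2, DDX21, NOB1 and UTP14A. Among ribosomal protein genes 44 of 64 had one (68.8%), and among all 27305 RefSeq windows 1104 did (4.04%). The E-box, which reads the same on both strands, was found in 16 of 41 members (39%), in 3 of 64 ribosomal protein genes (4.69%) and in 2030 of all windows (7.43%). In 13 of those 16 members an E-box began within 20 bases before to 30 bases after the start, as it does in NAT10 and PNO1 above. NOP2, at base 36, lay just outside. Other windows were not counted in this way, so whether this place is particular to the members was not tested. FBL carries both features, and its pyrimidine run and its E-box share a base. These are matches of letters at an annotated start, which was not measured in these cells.

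**Figure D1:**
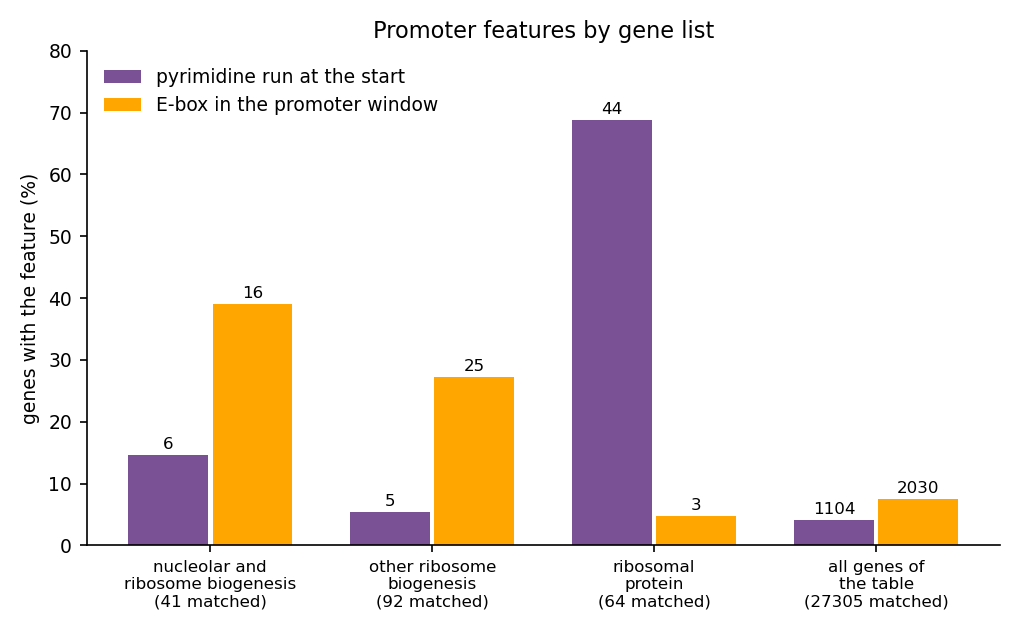
Share of genes (y axis, percent) whose RefSeq window begins with a pyrimidine run or holds an E-box, for 4 lists of genes (x axis). Numbers over the bars count genes. The pyrimidine run stood in 44 of 64 ribosomal protein genes and 6 of 41 nucleolar and ribosome biogenesis genes, the E-box in 3 and 16.

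Total counts ran from 20548300 to 37970163 per library, with 21945 to 26083 genes detected. The table had 0 genes named HOTSCRAMBL, so the edited transcript could not be checked. Of 12 myeloid markers, 10 had reads in every library, while KIT stayed at or under 0.63 CPM (counts scaled to a common library size) and CD14 at or under 2.59 CPM. Of 12 markers of other cell types, PECAM1 was the one above 12 CPM, at 92.6 to 181 CPM, and CD3E and HBB were at 0 in all 8 libraries. The summed other-type markers stood at 159 to 194 CPM in HOTSCRAMBL KO and at 104 to 120 CPM in the other groups. PECAM1 alone was at 181 and 148 CPM in HOTSCRAMBL KO. The myeloid markers summed to 2290 to 2471 CPM in HOTSCRAMBL KO and 1776 to 2027 CPM elsewhere. Within them LYZ was at 120 and 141 CPM in AAVS1 KO and 506 and 702 CPM in HOTSCRAMBL KO. Of 11 tested myeloid markers, 4 had a positive and 7 a negative log2 fold change with KO, so the sums do not show a shift of the whole list. The 13 mitochondrial mRNAs summed to 33159.7 to 36277 CPM in the controls, 69771 and 76367 CPM in HOTSCRAMBL KO and 43297.5 and 45909 CPM in HOTSCRAMBL CBE. The part of any of these in the results was not tested.

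The transcripts of the 49 genes were recovered at very unequal levels. Per kilobase of exon, over the 4 control libraries, DDX56 stood highest at 326 CPM per kb. NCL followed at 153, NOP56 at 104, BOP1 at 81.7 and NOP14 at 71.0 CPM per kb. NCL (nucleolin) is one of the most abundant nucleolar proteins, and NOP56 is a core protein of box C/D snoRNPs. At the low end were PNO1 at 2.26, NOP2 at 2.99 and GAR1 at 2.99 CPM per kb. NOP2 shares 54.4% of its exon bases with another gene. Reads over several genes were not counted, so its value per kb of full exon length may be too low. In all, 15 members were above 30 and 17 were under 10 CPM per kb in those controls. Medians were taken over all 8 libraries instead, at 14.5 CPM per kb for the members and 67.8 for the ribosomal protein genes. The latter therefore includes the HOTSCRAMBL libraries, in which ribosomal protein mRNAs were higher.

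The 49 transcripts together changed little in TMM-scaled CPM while ribosomal protein mRNAs rose. As a plain share of all counts, they made up 0.833 and 0.793% in AAVS1 KO against 0.679 and 0.676% in HOTSCRAMBL KO, and 0.776 and 0.786% in AAVS1 CBE against 0.697 and 0.705% in HOTSCRAMBL CBE. That share was lower in all 4 pairs. The sums that follow are in TMM-scaled CPM. The 49 genes summed to 8023 CPM (MOLM13) and 7459.6 CPM (OCI-AML4) in AAVS1 KO, and to 7121 and 7282 CPM in HOTSCRAMBL KO. They summed to 7419 and 7406 CPM in AAVS1 CBE and to 7338 and 7317 CPM in HOTSCRAMBL CBE. HOTSCRAMBL libraries were slightly under their own controls in all 4 pairs, at 0.887 and 0.976 times with KO and 0.989 and 0.988 times with CBE. The 80 ribosomal protein genes summed to 13062 and 14809 CPM in AAVS1 KO against 42328.5 and 48718 CPM in HOTSCRAMBL KO. With CBE they went from 12685 and 15052 to 33989 and 35491 CPM. That is 3.24 and 3.29 times with KO and 2.68 and 2.36 times with CBE, with no overlap between HOTSCRAMBL and AAVS1 libraries.

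**Figure D2:**
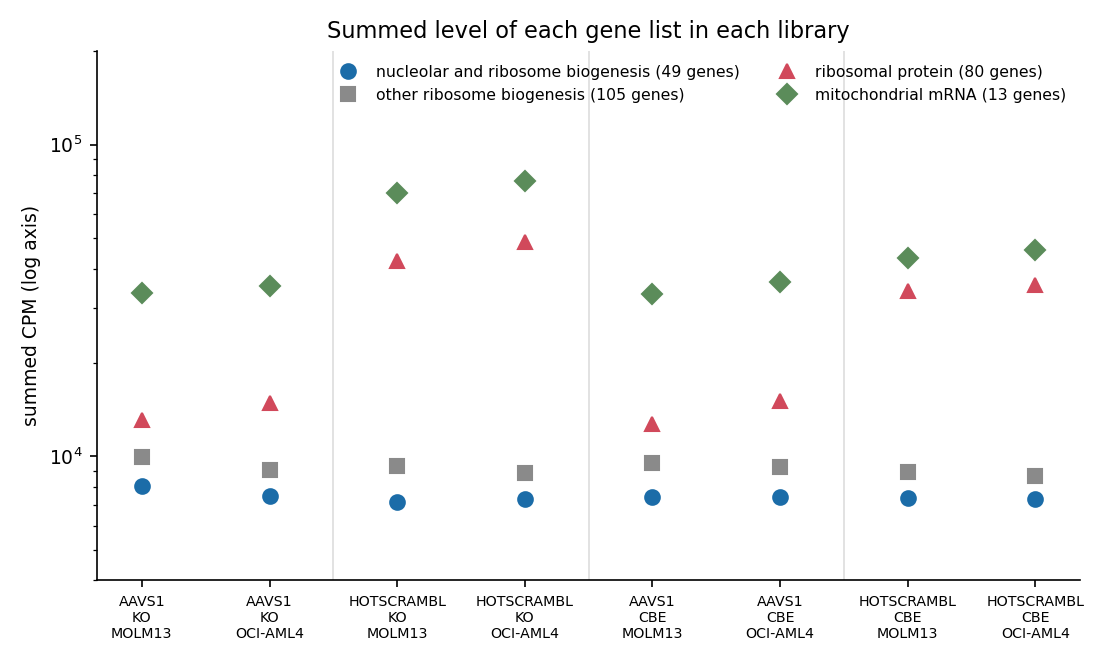
Summed CPM of 4 gene lists (y axis, log scale) in each of the 8 libraries (x axis, by group and line). The 49 genes lie between 7121 and 8023 CPM in every library, whereas ribosomal protein and mitochondrial mRNAs are higher in the HOTSCRAMBL libraries.

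The first comparison asked what differed in HOTSCRAMBL KO against AAVS1 KO. By edgeR's quasi-likelihood test with Benjamini-Hochberg adjustment over all genes and a threshold of 0.05, 3 of the 49 rose (FBL, NOP14 and DDX56), 4 fell (NCL, NOP56, NAT10 and POLR1C) and 42 did not pass. Over all 24057 genes, 4.51% were higher and 4.25% lower. Among 9837 other protein-coding genes within the members' range of levels, 7.24% were higher and 9.04% lower. The members' median log2 fold change was −0.05, against −0.01 over all genes and −0.05 over those protein-coding genes. Of the 80 ribosomal protein genes 73 rose and 0 fell, with a median of 1.56. No member reached the first quartile of the ribosomal protein genes (1.17), the highest being NOP10 at 0.94, which did not pass (adjusted p 0.255).

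The KO count depended on the settings. With no replicate block, that is without the line in the model, 0 members were higher and 3 lower, with library totals in place of TMM scaling 0 and 12, with DESeq2 4 and 11, and with only the 4 libraries of the contrast 0 and 2. With no block FBL, NOP14, POLR1C and DDX56 lost their calls (edgeR adjusted p 0.131, 0.123, 0.0594 and 0.119). With library totals FBL, NOP14 and DDX56 did (0.141, 0.314 and 0.37). Leaving out any 1 of the 8 libraries brought the number of calls from 7 to between 0 and 4, the lowest without AAVS1 KO replicate 1. In such fits the library left alone in its group is assumed to vary like the other groups.

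The second comparison asked the same of the base editor. In HOTSCRAMBL CBE against AAVS1 CBE, 5 members rose (NPM1, FBL, NOP14, NOP58 and EBNA1BP2), 7 fell (TCOF1, MYBBP1A, RRP1, NOC2L, BOP1, RRP12 and NOP56) and 37 did not pass. Over all genes 4.56% were higher and 4.27% lower, and 8.81% and 8.37% among the protein-coding genes of that range. The members' median log2 fold change was 0.09, against −0.02 over all genes and 0.03 over those protein-coding genes. Of the 80 ribosomal protein genes 75 rose and 0 fell, with a median of 1.25. Members above their first quartile of 1.04 were FBL at 1.05 and PNO1 at 1.24, of which PNO1 did not pass (adjusted p 0.0528).

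With no replicate block 4 members were higher and 4 lower with CBE, with library totals 3 and 11, with DESeq2 8 and 10, and with only the 4 libraries of the contrast 3 and 0. With no block NOP56, BOP1, RRP12 and EBNA1BP2 lost their calls (edgeR adjusted p 0.15, 0.168, 0.0779 and 0.0567), and with library totals NOP58 and EBNA1BP2 did (0.0557 and 0.103). The number of calls fell from 12 to 1 without AAVS1 CBE replicate 1, to 2 without HOTSCRAMBL CBE replicate 1, and to 6 without replicate 2 of either group. Without TMM scaling the median of all genes moved to −0.17 with KO and −0.15 with CBE, and that of the members to −0.21 and −0.05, so directions throughout are relative to TMM scaling.

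FBL, NOP14 and NOP56 were called with both editors, each in 1 direction. They are 42.9% of the 7 KO calls and 25% of the 12 CBE calls. Over all genes 814 were called with both editors, which is 38.6% of the KO calls and 38.3% of the CBE calls. For the ribosomal protein genes, all 73 KO calls were also CBE calls. Within pairs of libraries with the same line label, the members' median log2 ratio was −0.10 in MOLM13 and −0.03 in OCI-AML4 with KO, and 0.01 and 0.02 with CBE. The ribosomal protein genes had 1.58 and 1.53 with KO and 1.37 and 1.11 with CBE. Under both labels the ribosomal protein medians stood far above those of the members.

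**Figure D3:**
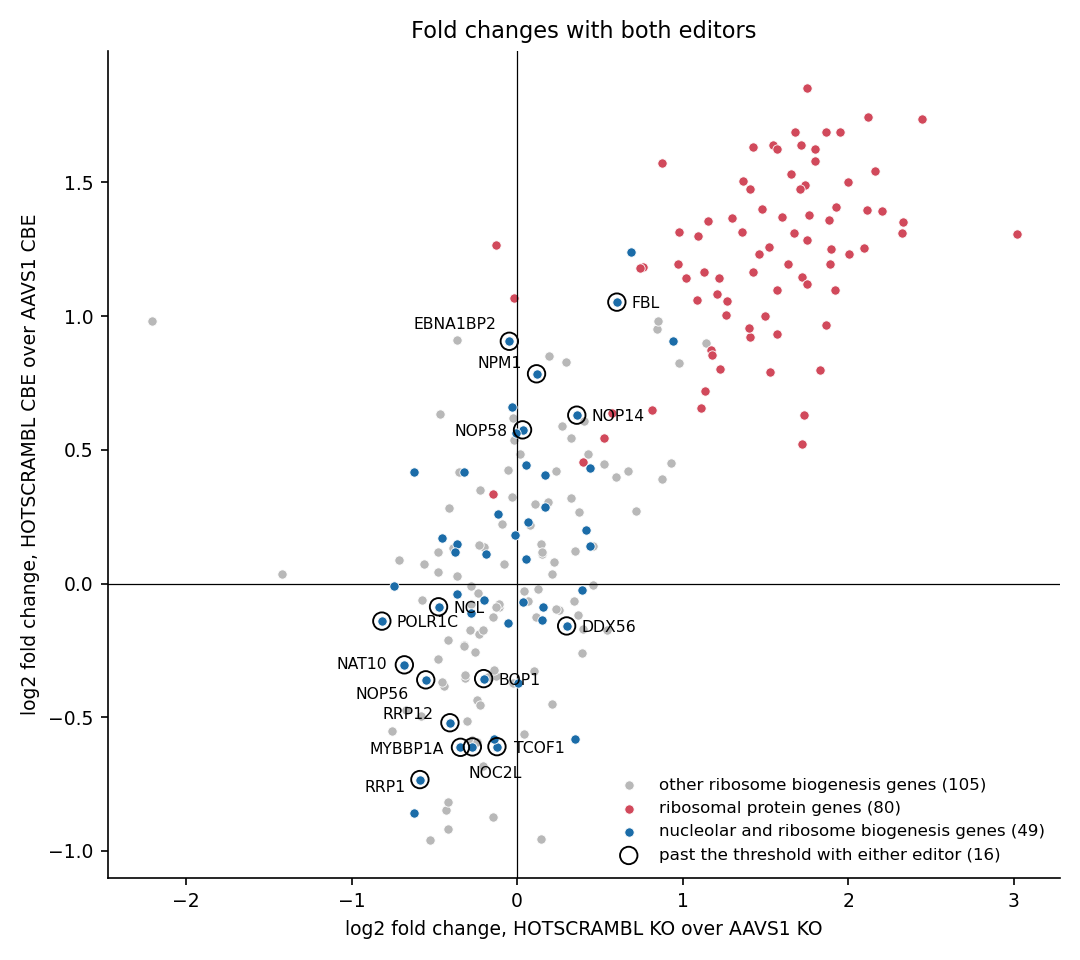
Log2 fold change with KO (x axis) against that with CBE (y axis) for the 49 genes, 80 ribosomal protein genes and 105 other ribosome biogenesis genes, one point per gene. Circled members passed the threshold with either editor, and they lie on both sides of 0 while 73 ribosomal protein genes rose with both.

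Averaged over both editors, 3 members rose (FBL, NPM1 and NOP14) and 9 fell (NCL, NOP56, NAT10, TCOF1, MYBBP1A, RRP1, NOC2L, BOP1 and RRP12), with 5.79% of all genes higher and 6.51% lower. Among protein-coding genes of the members' range 10.8% were higher and 12.9% lower. The member counts became 3 higher and 8 lower with no replicate block, 3 and 16 with library totals, and 8 and 12 with DESeq2. Between the controls, AAVS1 KO against AAVS1 CBE, edgeR called 0 members and 0% of all genes, with and without the line in the model. DESeq2 and limma-voom called 0 members. By edgeR with the line, 4 members and 918 of all genes had an unadjusted p under 0.05. Between the labelled lines, MOLM13 against OCI-AML4 over all groups, edgeR called 0 members and 0.495% of all genes, and DESeq2 called 4 and limma-voom 2 members. An unadjusted p under 0.05 was found for 9 members and for 2213 of all 24057 genes. The average contrast shares its libraries with the KO and CBE contrasts and adds no samples to them.

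Levels of the 2 libraries of a group did not overlap with those of its control for many members. With KO the 2 HOTSCRAMBL libraries were above both controls for 10 members (20.4%, against 21.0% of all genes) and under both for 21 (42.9%, against 23.8%). In the protein-coding genes of that range the shares were 24.3% and 29.9%. With CBE they were above for 15 members and under for 15 (30.6% each, against 22.7% and 23.7% of all genes, and 31.1% and 27.1% of those protein-coding genes).

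Among the general nucleolar proteins, NCL was the most abundant and fell with KO. NCL (ENSG00000115053, chromosome 2, 231453531 to 231483641, minus strand, GRCh38) encodes nucleolin, which binds ribosomal RNA precursors and their chromatin. Its level was 1481 and 1353 CPM in AAVS1 KO, 1029 and 1010 CPM in HOTSCRAMBL KO, 1296 and 1339 CPM in AAVS1 CBE, and 1226 and 1256 CPM in HOTSCRAMBL CBE (MOLM13 first). The HOTSCRAMBL KO libraries were under all 6 others, and HOTSCRAMBL CBE lay just under its own control. On the log2 scale it differed by −0.47 with KO (SE 0.0821, edgeR adjusted p 2.18e-04) and −0.09 with CBE (SE 0.0808, adjusted p 0.611). The KO call was lost without AAVS1 KO replicate 1 (log2 fold change −0.39, adjusted p 0.0725). The difference between the editors' effects did not pass (adjusted p 0.0664).

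NPM1 (ENSG00000181163, chromosome 5, 171387116 to 171411810, plus strand) rose with CBE and was not called with KO. It encodes nucleophosmin, a chaperone of ribosome assembly and of histones. It stood at 289 and 242 CPM in AAVS1 KO, 277 and 296 CPM in HOTSCRAMBL KO, 261 and 256 CPM in AAVS1 CBE, and 455 and 434 CPM in HOTSCRAMBL CBE. Only the HOTSCRAMBL CBE libraries stood apart from the other 6, and the KO groups overlapped. edgeR gave a log2 fold change of 0.78 with CBE (SE 0.109, edgeR adjusted p 1.25e-05) and 0.12 with KO (SE 0.115, adjusted p 0.633). Its CBE call held in all 8 fits that left out a library, at log2 fold changes of 0.76 to 0.81.

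MYBBP1A, a nucleolar MYB-binding protein that takes part in ribosomal RNA processing, fell with CBE. Its levels were 314 and 267 CPM in AAVS1 KO, 239 and 219 CPM in HOTSCRAMBL KO, 303 and 251 CPM in AAVS1 CBE, and 176 and 187 CPM in HOTSCRAMBL CBE. HOTSCRAMBL libraries were under their controls with both editors. Its log2 fold change was −0.61 with CBE (SE 0.119, edgeR adjusted p 8.92e-04) and −0.34 with KO (adjusted p 0.0842). The CBE call was lost without replicate 1 of AAVS1 CBE (adjusted p 0.105) or of HOTSCRAMBL CBE (adjusted p 0.149).

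DDX21, a helicase that links RNA polymerase I with snoRNAs, carries the pyrimidine start of 12 bases printed above. It stood at 211 and 210.3 CPM in AAVS1 KO, 189.8 and 199.8 CPM in HOTSCRAMBL KO, 209.6 and 234 CPM in AAVS1 CBE, and 286 and 243 CPM in HOTSCRAMBL CBE. The groups did not overlap with either editor, lower with KO and higher with CBE, but neither difference passed (edgeR adjusted p 0.691 and 0.214).

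In the machinery of RNA polymerase I, 1 of 6 genes passed with each editor, and it was a different gene. That is 16.7%, near the 16.3% with KO and 17.2% with CBE among protein-coding genes of the members' range. POLR1C, a subunit shared by RNA polymerases I and III, fell with KO. It stood at 47.2 and 53.8 CPM in AAVS1 KO, 23.9 and 33.3 CPM in HOTSCRAMBL KO, 37.4 and 46.8 CPM in AAVS1 CBE, and 37.7 and 37.7 CPM in HOTSCRAMBL CBE. The KO groups were apart and the CBE groups overlapped. The fitted log2 change was −0.82 with KO (SE 0.25, edgeR adjusted p 0.0391) and −0.14 with CBE (adjusted p 0.785). The call was lost in each of the 8 fits that left out a library, with adjusted p from 0.0606 to 0.295. Exons of POLR1C share 18.3% of their bases with other genes, among them YIPF3 and XPO5.

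TCOF1, which encodes treacle, a scaffold that brings UBTF and RNA polymerase I to ribosomal DNA, fell with CBE. It stood at 183 and 184 CPM in AAVS1 KO, 177 and 161 CPM in HOTSCRAMBL KO, 205 and 189.5 CPM in AAVS1 CBE, and 130.4 and 128 CPM in HOTSCRAMBL CBE. The HOTSCRAMBL CBE libraries were under all 6 others. On the log2 scale it differed by −0.61 with CBE (SE 0.126, edgeR adjusted p 0.00162) and −0.12 with KO (adjusted p 0.669). Without replicate 1 of AAVS1 CBE or of HOTSCRAMBL CBE the CBE call was lost (adjusted p 0.0886 and 0.0926).

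UBTF and POLR1A, the architectural factor and the largest subunit of the same machinery, did not pass with either editor. UBTF stood at 249 and 212 CPM in AAVS1 KO, 184 and 175 CPM in HOTSCRAMBL KO, 227 and 232 CPM in AAVS1 CBE, and 245 and 265 CPM in HOTSCRAMBL CBE (edgeR adjusted p 0.0797 with KO and 0.54 with CBE). Its groups were apart with both editors, lower with KO and higher with CBE. POLR1A stood at 188 and 198 CPM in AAVS1 KO, 195 and 178 CPM in HOTSCRAMBL KO, 184 and 173 CPM in AAVS1 CBE, and 148 and 176 CPM in HOTSCRAMBL CBE, with overlap in both comparisons. POLR1B and RRN3, the latter the initiation factor that joins the polymerase to its promoter, had log2 fold changes of −0.20 and −0.03 with KO and −0.06 and 0.66 with CBE, none past the threshold. All 6 had a negative log2 fold change with KO and 4 of 6 with CBE, with medians of −0.16 and −0.10. Of all 49 members, 28 were negative with KO and 24 with CBE.

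Genes of a single snoRNP moved in opposite directions. FBL, NOP56 and NOP58 all belong to the box C/D snoRNP, in which FBL (fibrillarin) is the methyltransferase and NOP56 and NOP58 are its paired scaffolds. FBL (ENSG00000105202, chromosome 19, 39834458 to 39846379, minus strand) stood at 83.3 and 87.5 CPM in AAVS1 KO, 90.3 and 174 CPM in HOTSCRAMBL KO, 50.8 and 86.7 CPM in AAVS1 CBE, and 128 and 150.1 CPM in HOTSCRAMBL CBE. HOTSCRAMBL was higher in all 4 pairs without overlap, though in the MOLM13 KO pair only just. edgeR gave a log2 fold change of 1.05 with CBE (SE 0.178, edgeR adjusted p 1.80e-04) and 0.60 with KO (SE 0.186, adjusted p 0.0413). The log2 ratio of the KO pairs was 0.12 in MOLM13 and 0.99 in OCI-AML4. The KO call held in 1 of the 8 fits that left out a library, and the fold change was 0.25 without HOTSCRAMBL KO replicate 2 (adjusted p 0.687) and 0.32 without AAVS1 KO replicate 2 (adjusted p 0.646). The CBE call was lost without replicate 1 of AAVS1 CBE (adjusted p 0.0694) or of HOTSCRAMBL CBE (adjusted p 0.0764).

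NOP56 (ENSG00000101361, chromosome 20, 2652593 to 2658393, plus strand) went the other way. It stood at 558 and 461 CPM in AAVS1 KO, 341 and 349 CPM in HOTSCRAMBL KO, 566 and 473 CPM in AAVS1 CBE, and 459.7 and 350.3 CPM in HOTSCRAMBL CBE. HOTSCRAMBL libraries were under their controls in all 4 pairs and the groups did not overlap. Its log2 fold change was −0.55 with KO (SE 0.108, edgeR adjusted p 0.00102) and −0.36 with CBE (SE 0.104, adjusted p 0.0278). The KO call was lost without either AAVS1 KO library (adjusted p 0.101 and 0.0505) and without HOTSCRAMBL KO replicate 1 (adjusted p 0.112). The CBE call was kept in 2 of 8 such fits, and without HOTSCRAMBL CBE replicate 2 the fold change was −0.26 (adjusted p 0.359).

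NOP58, its partner, rose with CBE. Levels were 108 and 103 CPM in AAVS1 KO, 116 and 100.5 CPM in HOTSCRAMBL KO, 94.6 and 85.8 CPM in AAVS1 CBE, and 143 and 126 CPM in HOTSCRAMBL CBE. The CBE groups were apart and the KO groups overlapped. The fitted log2 change was 0.57 with CBE (SE 0.143, edgeR adjusted p 0.00908) and 0.03 with KO (adjusted p 0.938). Its CBE call was lost without any 1 of the 4 CBE libraries, with adjusted p from 0.0751 to 0.202, and its exons share 10.3% of their bases with other genes.

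The box H/ACA snoRNP, in which DKC1 (dyskerin) is the pseudouridine synthase and GAR1, NHP2 and NOP10 are its partners, gave no call. DKC1 stood at 144 and 115 CPM in AAVS1 KO, 93.6 and 95.4 CPM in HOTSCRAMBL KO, 117 and 129 CPM in AAVS1 CBE, and 145 and 131 CPM in HOTSCRAMBL CBE. Its HOTSCRAMBL libraries were under both controls with KO and above both with CBE, with edgeR adjusted p of 0.0845 and 0.57. GAR1, NHP2 and NOP10 were low, between 2.6 and 33.2 CPM in any library, with log2 fold changes of −0.74, 0.44 and 0.94 with KO. RRP9, the protein that marks the snoRNP needed for the first cuts of the precursor, had 0.35 with KO and −0.58 with CBE (adjusted p 0.606 and 0.21), and NOLC1, a chaperone of snoRNPs, 0.04 and −0.07.

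Of the 14 small subunit factors, 1 rose and 1 fell with each editor. That is 14.3%, against 16.3% with KO and 17.2% with CBE among protein-coding genes of the members' range. NOP14 (ENSG00000087269, chromosome 4, 2937933 to 2963406, minus strand), a factor of the early small subunit particle, rose with both. It stood at 274 and 257 CPM in AAVS1 KO, 337 and 344 CPM in HOTSCRAMBL KO, 229 and 252 CPM in AAVS1 CBE, and 381 and 362 CPM in HOTSCRAMBL CBE. All 4 HOTSCRAMBL libraries were above all 4 controls. On the log2 scale it differed by 0.63 with CBE (SE 0.108, edgeR adjusted p 2.09e-04) and 0.36 with KO (SE 0.111, adjusted p 0.0417). The KO call was lost in each of the 8 fits that left out a library (adjusted p 0.0608 to 0.358), and the CBE call without AAVS1 CBE replicate 1 (adjusted p 0.0598). Strand was not used in counting, and 20.7% of its exon bases are shared with NOP14-AS1. Reads over those shared bases were not counted for either gene.

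NAT10, which acetylates cytidines of ribosomal RNA, fell with KO. It stood at 190.2 and 159 CPM in AAVS1 KO, 116 and 101 CPM in HOTSCRAMBL KO, 164 and 153 CPM in AAVS1 CBE, and 146 and 110.2 CPM in HOTSCRAMBL CBE. HOTSCRAMBL libraries were lower in all 4 pairs without overlap. edgeR gave a log2 fold change of −0.68 with KO (SE 0.144, edgeR adjusted p 0.00219) and −0.30 with CBE (SE 0.134, adjusted p 0.19). The KO call was lost without either AAVS1 KO library (adjusted p 0.0995 and 0.062) or HOTSCRAMBL KO replicate 1 (adjusted p 0.0629).

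RRP12, which works in maturation and export of the subunits, fell with CBE by 0.52 on the log2 scale (SE 0.157, edgeR adjusted p 0.0356), from 109.7 and 100.2 CPM to 71.3 and 75.7 CPM without overlap. That call held in 2 of the 8 fits that left out a library, and without HOTSCRAMBL CBE replicate 1 it was −0.44 (adjusted p 0.435). PNO1, a late assembly factor whose E-box is printed above, had the highest CBE log2 fold change of the 49 at 1.24. It stood at 7.23 and 5.48 CPM in AAVS1 CBE and 18.3 and 11.5 CPM in HOTSCRAMBL CBE, without overlap, and did not pass (adjusted p 0.0528). The other 10 small subunit genes, among them UTP20, HEATR1, WDR43 and BYSL, did not pass with either editor, with log2 fold changes from −0.38 to 0.42 with KO and from −0.58 to 0.56 with CBE.

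Among 16 large subunit factors, 1 rose with KO, and 1 rose and 3 fell with CBE. These are 6.25% and 25%, against 16.3% and 17.2% of the protein-coding genes of the members' range. DDX56 (ENSG00000136271, chromosome 7, 44565804 to 44575051, minus strand), a helicase of late large subunit assembly, rose with KO and did not with CBE. It stood at 1283 and 1238 CPM in AAVS1 KO, 1565 and 1539 CPM in HOTSCRAMBL KO, 1089 and 1187 CPM in AAVS1 CBE, and 954 and 1087 CPM in HOTSCRAMBL CBE. The KO groups were apart upwards and the CBE groups apart downwards. Its log2 fold change was 0.30 with KO (SE 0.0838, edgeR adjusted p 0.0225) and −0.16 with CBE (SE 0.0837, adjusted p 0.301). Without any 1 of the 4 KO libraries the KO call was lost, at 0.24 to 0.38 and adjusted p from 0.0863 to 0.349.

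RRP1, a processing factor of the large subunit, fell with CBE. It stood at 87.3 and 77.4 CPM in AAVS1 KO, 49.4 and 59.2 CPM in HOTSCRAMBL KO, 107 and 82.2 CPM in AAVS1 CBE, and 58.8 and 55.4 CPM in HOTSCRAMBL CBE. All 4 HOTSCRAMBL libraries were under all 4 controls. The fitted log2 change was −0.73 with CBE (SE 0.177, edgeR adjusted p 0.00708) and −0.59 with KO (SE 0.198, adjusted p 0.0663). The CBE call was lost without AAVS1 CBE replicate 1 (adjusted p 0.338), HOTSCRAMBL CBE replicate 1 (0.241) or replicate 2 (0.0846).

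NOC2L, known as a chaperone of large subunit export and as a histone acetyltransferase inhibitor, fell with CBE. It stood at 154 and 145 CPM in AAVS1 KO, 124 and 124 CPM in HOTSCRAMBL KO, 167 and 163 CPM in AAVS1 CBE, and 102 and 114 CPM in HOTSCRAMBL CBE, so that all HOTSCRAMBL libraries were under all controls. On the log2 scale it differed by −0.61 with CBE (SE 0.135, edgeR adjusted p 0.00323) and −0.27 with KO (adjusted p 0.302). Its CBE call was lost without either AAVS1 CBE library (adjusted p 0.117 and 0.0558) or HOTSCRAMBL CBE replicate 1 (adjusted p 0.201).

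BOP1 forms a complex with PES1 and WDR12 on the large subunit precursor. It stood at 305 and 352 CPM in AAVS1 KO, 253 and 319 CPM in HOTSCRAMBL KO, 284 and 314 CPM in AAVS1 CBE, and 217 and 252 CPM in HOTSCRAMBL CBE. The KO groups overlapped and the CBE groups were apart. It fell with CBE by 0.36 on the log2 scale (SE 0.109, edgeR adjusted p 0.0382), a call kept in 2 of the 8 fits that left out a library and at −0.30 without AAVS1 CBE replicate 1 (adjusted p 0.39). Its partners PES1 and WDR12 had log2 fold changes of 0.41 and 0.29 with CBE and 0.17 and 0.17 with KO, and none passed. The 3 proteins of the complex were therefore not called together with either editor.

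EBNA1BP2, a scaffold of early large subunit particles, rose with CBE from 25.3 and 19 CPM to 45.3 and 37.6 CPM. This was 0.91 on the log2 scale (SE 0.288, edgeR adjusted p 0.0484). With KO its pairs went opposite ways, from 25.9 to 43.9 CPM in MOLM13 and from 47.8 to 28.2 CPM in OCI-AML4. The CBE call was kept in 2 of the 8 fits that left out a library and was at 0.75 without HOTSCRAMBL CBE replicate 1 (adjusted p 0.568). GNL3 (nucleostemin), a GTPase of large subunit assembly, stood at 99.3 and 84.6 CPM in AAVS1 KO, 99.7 and 92.5 CPM in HOTSCRAMBL KO, 117 and 89.2 CPM in AAVS1 CBE, and 125 and 117 CPM in HOTSCRAMBL CBE, overlapped in both comparisons and did not pass (adjusted p 0.867 and 0.409). The remaining 8 large subunit genes, such as NOP2, BRIX1, GTPBP4 and DDX18, gave no call, with log2 fold changes from −0.62 to 0.44 with KO and −0.86 to 0.44 with CBE.

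**Figure D4:**
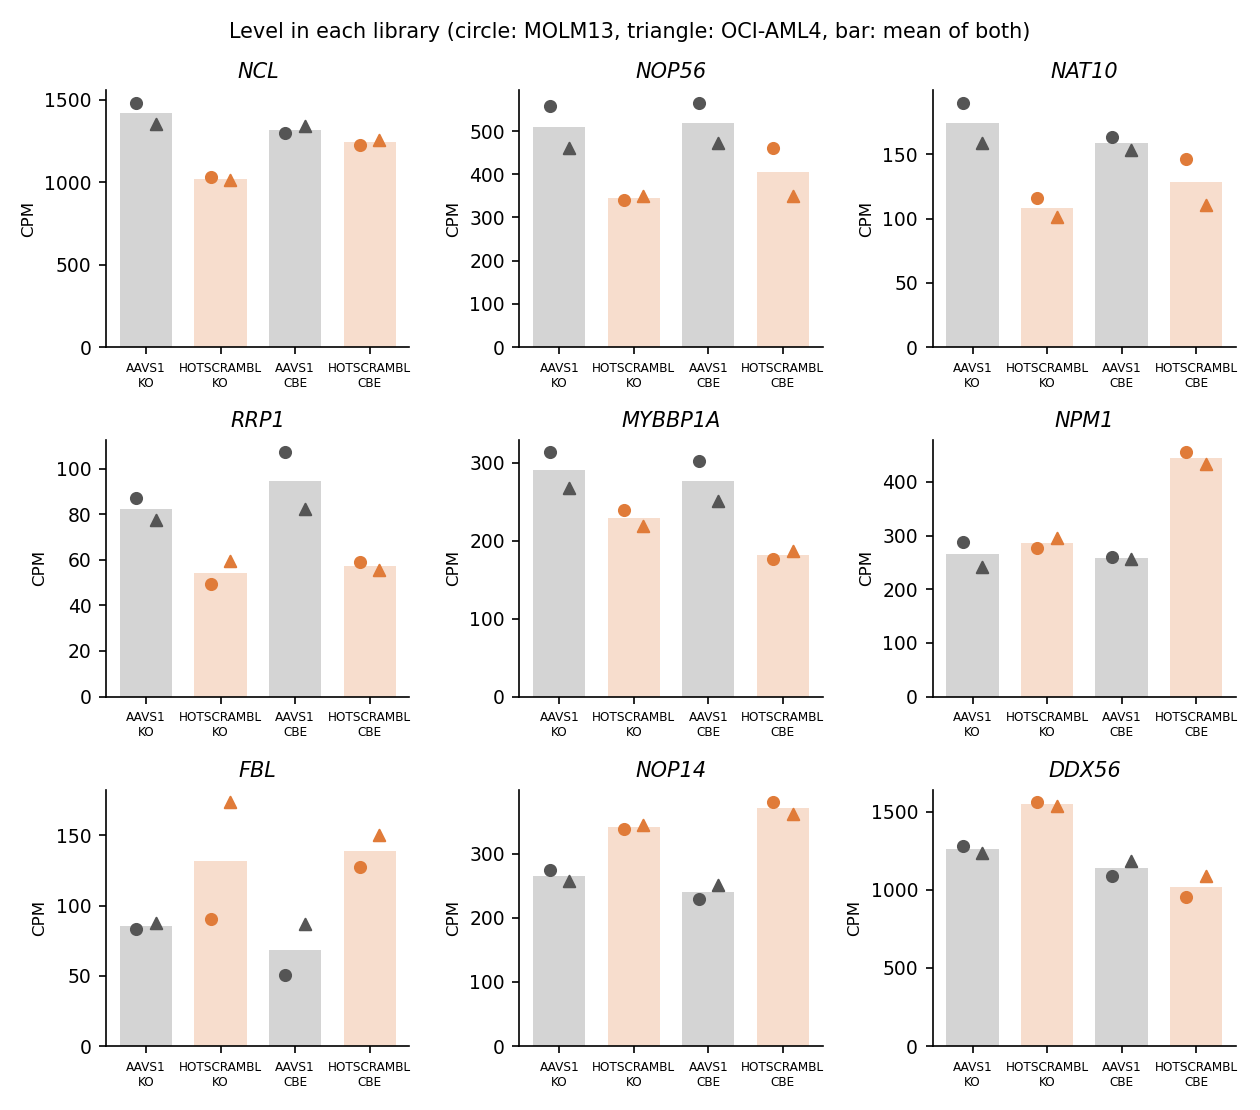
CPM (y axis, from 0) of 9 genes in the 4 groups (x axis). Circles are MOLM13 and triangles OCI-AML4 libraries, and bars are the mean of both. NCL is lowest in HOTSCRAMBL KO, NPM1 is highest in HOTSCRAMBL CBE at 434 and 455 CPM, and all 4 HOTSCRAMBL libraries of NOP14 lie above its controls.

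**Figure D5:**
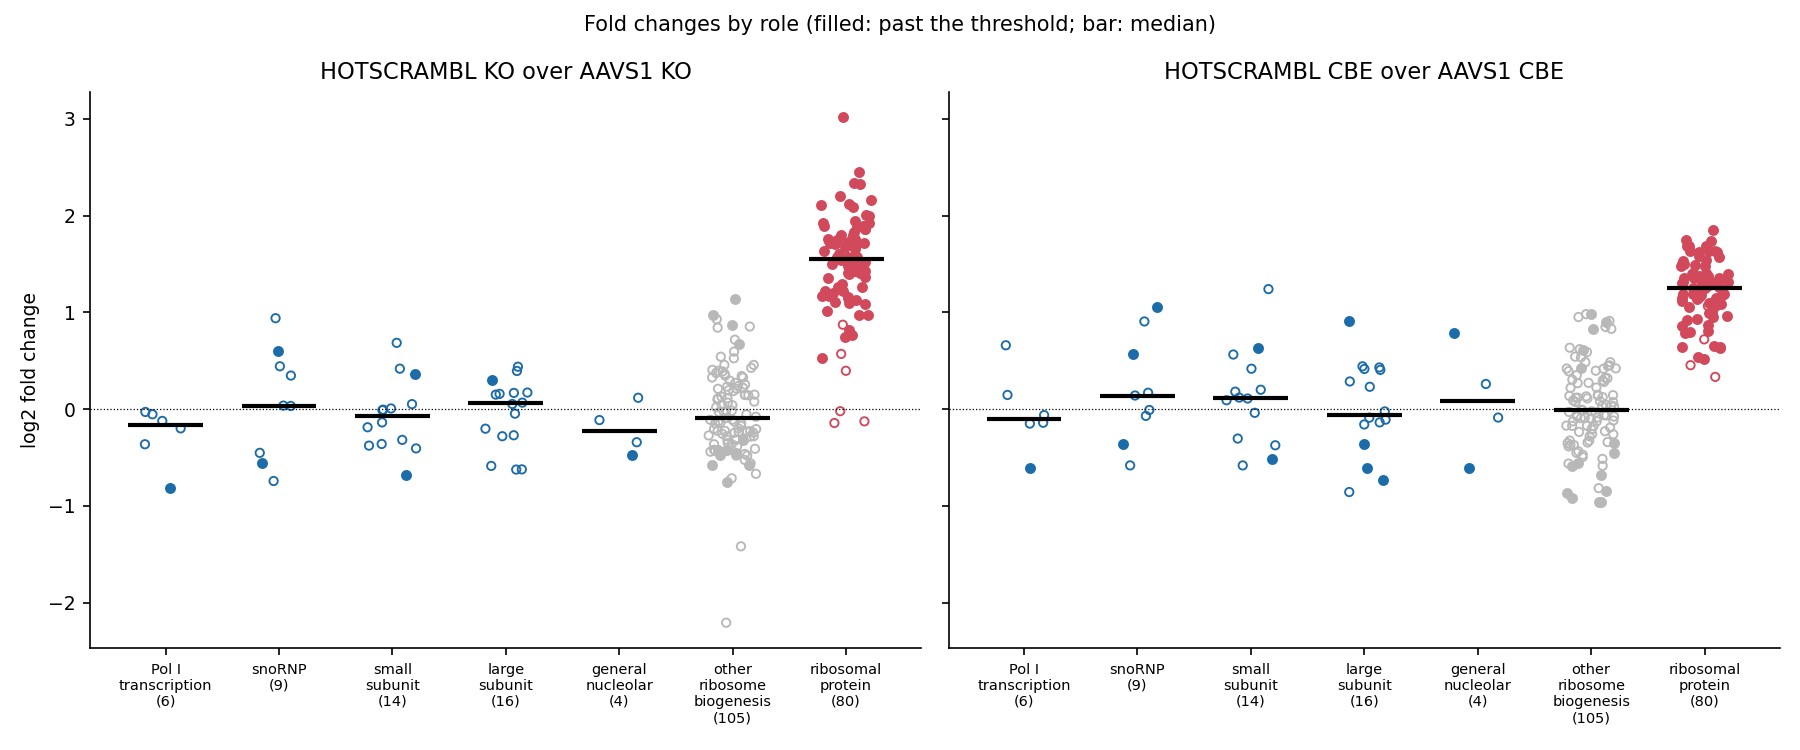
Log2 fold change (y axis) of each gene by role (x axis, number of genes in brackets) with KO on the left and CBE on the right. Filled points passed the threshold and bars are medians. The medians of all 5 roles lie between −0.23 and 0.14, against 1.56 and 1.25 for ribosomal protein genes.

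The third comparison tested whether the effect of HOTSCRAMBL differed between the editors. Of the 49 genes, 1 had a higher and 1 a lower effect with KO than with CBE. The shares were 1.74% and 1.45% of all genes, and 2.90% and 3.16% of the protein-coding genes of the members' range. DDX56 had a difference of 0.46 on the log2 scale (SE 0.118, edgeR adjusted p 0.0295) and NPM1 one of −0.67 (SE 0.158, adjusted p 0.0154). The members' median difference was −0.17, against −0.01 over all genes and −0.07 over the protein-coding genes of their range, and 13 members and 3399 of all 24057 genes had an unadjusted p under 0.05. For the ribosomal protein genes 19 differences were higher and 0 lower. Both calls were lost with no replicate block (adjusted p 0.169 for DDX56 and 0.072 for NPM1), each was kept in 1 of the 8 fits that left out a library (adjusted p up to 0.284 for DDX56, without AAVS1 KO replicate 2, and 0.301 for NPM1, without AAVS1 KO replicate 1), and DESeq2 called 3 higher and 6 lower.

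Members with snoRNA genes between their first and last base were examined as a group, since such transcripts can also be the source of the snoRNAs. Whether each snoRNA lies in an intron was not examined. By GENCODE 29 annotation, 7 of the 49 hold one on their strand: NCL, NOP56, NOP58, DKC1, POLR1C, WDR43 and GNL3. With KO 3 of these 7 fell and 0 rose, with a median log2 fold change of −0.45, where 4.25% of all genes and 9.04% of the protein-coding genes of the members' range were lower. Among the 42 others 1 fell and 3 rose, with a median of −0.02. With CBE 1 of the 7 fell and 1 rose, and the medians were −0.04 and 0.10. Reads over exons of more than 1 gene were not counted, and whether host and snoRNA moved apart was not tested.

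Members with shorter exons tended to have higher fold changes. The total exon length of the 49 ran from 1476 to 19694 bases with a median of 4710, against a median of 3240 in the ribosomal protein genes. Spearman's rho of log2 fold change with exon length over the 49 genes, which share the 8 libraries, was −0.39 with KO and −0.23 with CBE. Among genes with up to 3684 bases of exon, 16 members gave 3 higher and 0 lower calls with KO and 4 and 0 with CBE. The longer members gave all the lower calls, 4 with KO and 7 with CBE. The 2437 other protein-coding genes of that length gave 238 higher and 105 lower calls with KO and 304 and 132 with CBE, so shorter genes outside the list leaned the same way. The 46 ribosomal protein genes of that length had a median of 1.72 with KO against 0.15 for the 16 members, and the part of length in the results was not tested.

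The calls were set beside the promoter features. Of 6 members with a pyrimidine start, 3 rose with CBE (FBL, NPM1 and EBNA1BP2), 0 fell, and the median log2 fold change was 0.52. In all, 5 of the 6 were positive, and UTP14A was at −0.58 (edgeR adjusted p 0.0656). Of the 35 without one, 1 rose (NOP14) and 4 fell, with a median of 0.09. Members without a RefSeq window are in neither class, and of these NOP58 rose and TCOF1, BOP1 and RRP12 fell with CBE. With KO the 6 had a median of −0.03 and 1 call, FBL. Among other tested genes, 12.9% of 583 with a pyrimidine start and 5.94% of 11684 without one were higher with CBE. Ribosomal protein genes rose with and without it: 41 of 44 with it and 19 of 20 without it rose with CBE, with medians of 1.18 and 1.36. By E-box, the members' medians were −0.03 with it and −0.11 without it with KO, and 0.26 and 0.12 with CBE.

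Of 105 further ribosome biogenesis genes, 4 rose and 8 fell with KO (median −0.09) and 5 rose and 10 fell with CBE (median −0.01). These are 11.4% and 14.3% of the list, against 16.3% and 17.2% of the protein-coding genes of the members' range. NOP53, a late large subunit factor, rose from 202 and 248 to 418 and 466 CPM with KO (log2 fold change 0.98, edgeR adjusted p 2.95e-07) and from 192 and 234 to 345 and 411 CPM with CBE (0.83, adjusted p 4.04e-06). RSL24D1, a placeholder protein of the pre-large subunit, rose with both as well (1.14 and 0.90), BUD23 with KO (0.87) and RSL1D1 with CBE (0.61). FTSJ3, MDN1 and GRWD1 fell with KO (−0.75, −0.32 and −0.58). TAF1C, a subunit of the RNA polymerase I selectivity factor, fell with CBE from 370 and 382 to 208 and 190 CPM (−0.92, adjusted p 1.04e-05), as did URB1 and DDX51 (−0.87 and −0.96). The number of calls in this list was 6 with KO and no replicate block, 20 with DESeq2, and 2 to 9 when any 1 library was left out.

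Within the ribosomal protein genes the smallest p-values belonged to RPL8, RPLP0 and RPLP2, with log2 fold changes of 2.45, 1.75 and 2.16 with KO and 1.74, 1.85 and 1.54 with CBE. RPLP0, whose start is printed above, went from 457 and 593 to 1578 and 1958 CPM with KO. RPS10 and RPL17, among those with the largest p-values, stood at 3.69 to 21.2 CPM in all libraries and did not pass. Genes of this family have near-identical copies, and the counting left out reads that matched several positions.

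MYC, the regulator named above, rose with both editors, from 333 and 441 to 670 and 724 CPM with KO (log2 fold change 0.86, edgeR adjusted p 6.95e-07) and from 358 and 408 to 679 and 748 CPM with CBE (0.90, adjusted p 2.83e-07). Its antagonist MXD1 rose (0.71 and 0.98) and its antagonist MNT fell (−0.63 and −0.77) with both. MAX, MXD4 and MGA did not pass with either, and MYCN had 0 reads in all 8 libraries. Among the 16 members with an E-box, 2 rose (12.5%) and 1 fell with KO, and 3 rose (18.8%) and 1 fell with CBE. Of 1170 other tested genes with an E-box, 5.81% were higher with KO and 7.61% with CBE.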

How the data were processed

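ChIRP RNA from 8 libraries was measured as read counts per gene. The authors' deposited counts were made with featureCounts 2.0.6 on Ensembl 112 annotation, per the file headers, without strand and with paired ends counted as reads, so most counts are even (71.8 to 74.9% of those from 1 to 20). Reads matching several positions or several genes were left out. Symbols were matched for 42345 of 63140 genes (67.07%). CPM are counts per 1e6 reads after TMM scaling. edgeR 4.0.16 (R 4.3.3) quasi-likelihood tests, with a term for each group and for the line, ran on 24057 genes left by a minimum count of 10, with 3 residual degrees of freedom. limma 3.58.1 and DESeq2 1.42.0 were alternatives. Replicate numbers pair the libraries because the labels give the line. Same-numbered libraries deviated together weakly (r 0.00851 to 0.0245 over all genes, 0.0388 to 0.112 over those above the median level). The code was tested on simulated data. By the naming rule, values in every library were given for the 8 members with the smallest p with KO, the 8 with CBE, the 6 in the difference and 10 well-known members, and log2 fold changes for any past the threshold. Of other lists, the 3 genes with the smallest p (wider list, in each direction with each editor), the 3 with the smallest and 3 with the largest p (ribosomal proteins) and the whole MYC family were named, except 1 gene that is not reported here. Library values of RRP12, EBNA1BP2 and PNO1, and members named without a call, were chosen after their values were seen. The members and lists were chosen with earlier results of these data known. Motifs and sequences came from RefSeq.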

Additional observations from a re-analysis of the deposited data

Results flagged for a closer look

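The effect of HOTSCRAMBL differed between the editors for 2 members by a test of the difference itself. For NPM1 the KO effect minus the CBE effect was −0.67 on the log2 scale (edgeR adjusted p 0.0154). For DDX56 it was 0.46 (edgeR adjusted p 0.0295). The 2 calls are 4.08% of the 49 members, against 6.06% of the protein-coding genes of their range. Both were lost with no replicate block.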

How the results depend on the processing

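Over the alternatives, 475 of 613 values for single genes kept their direction and side of the threshold, 138 fell short of the threshold and 0 reversed. They cover only the 33 results called in the main fit, refitted on these same libraries. For KO and CBE calls, some of the libraries left out belonged to the other editor. The number of members called was 7 with KO, and became 3 with no replicate block, 12 with library totals, 15 with DESeq2, 2 with the 4 libraries of the contrast and 0 to 4 without 1 library. With CBE it was 12, and became 3 with those 4 libraries and 1 to 11 without 1 library. For the average it was 12, and became 19 with library totals, 20 with DESeq2 and 9 to 12 without 1 library. For the difference between editors it was 2, and became 0 with no replicate block, 9 with DESeq2 and 0 to 1 without 1 library. For the line it was 0, and became 1 with no filter, with a stricter filter or with the older moderation, 4 with DESeq2 and 2 with limma-voom. For the wider list it was 12 with KO (6 with no replicate block, 20 with DESeq2, 3 with 4 libraries, 2 to 9 without 1 library) and 15 with CBE (26 with DESeq2, 4 with 4 libraries, 3 to 13 without 1 library). The members' median went from −0.05 with KO to −0.21 with library totals and to between −0.12 and −0.0339 without 1 library. With CBE it went from 0.0919 to −0.0468 with library totals, 0.0794 with DESeq2, 0.0797 with its size factors, 0.099 with no filter and 0.0101 to 0.0914 without 1 library. For the average it went from −0.02 to −0.16 with library totals and −0.06 to 0.02 without 1 library. Without 1 library it was −0.23 to −0.11 for the difference and −0.0334 to 0.11 between the controls. The gap between the medians of ribosomal protein genes and members stayed at 1.60 to 1.67 with KO and 1.11 to 1.34 with CBE without 1 library, with 67 to 73 and 63 to 75 ribosomal protein genes called. The cause of these shifts was not tested.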
